A study of Mus musculus with 80 samples.

Results

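The 8 libraries described here were made from frozen livers of 4 mice fed 1500 ppm di(2-ethylhexyl)phthalate (DEHP), a plasticizer, and of 4 mice fed 0 ppm, out of 80 libraries in the series. They were chosen by chemical, dose and preparation alone, with no measured value: animals 3A, 40A, 60A and 72B at 1500 ppm, and animals 32A, 45C, 63A and 75A at 0 ppm. All 8 animals were male B6C3F1 mice (a hybrid of the C57BL/6 and C3H strains) 4 weeks of age, took DEHP or control diet in the feed for 7 days, and gave frozen tissue mixed from several liver lobes in 2013. The series asks how well archived formalin-fixed, paraffin-embedded (FFPE) liver keeps the response to a chemical, and holds FFPE libraries of the same animals, DEHP at 3000 and 6000 ppm, and a separate study of dichloroacetic acid. 1500 ppm was the lowest DEHP dose, so the comparison with 0 ppm gives the response at the low end of the range. Each library is 1 animal, and RNA was sequenced with a stranded total RNA kit that removes ribosomal RNA.

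DEHP is taken up and cleaved to a monoester that activates the nuclear receptor PPAR alpha in rodent liver. PPAR alpha pairs with a retinoid X receptor on direct repeats spaced by a single base (DR1 elements) and turns on genes for taking up, activating and burning fatty acids in peroxisomes, in the endoplasmic reticulum and in mitochondria. In mice such agents also enlarge the liver, and they can touch the xenobiotic receptors CAR and PXR, which control drug-metabolizing enzymes.

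The 1500 ppm libraries held 20071851 to 29550616 counts and the 0 ppm libraries 16631017 to 27773545. Several libraries stood apart before any comparison. The 1500 ppm library 40A had 14370 genes above 0, against 16231 to 17039 in the other 7 libraries, and 9.61% of its counts lay on rows named only by clone codes, against 6.61% to 7.63% in the controls. The 0 ppm library 45C carried skeletal muscle transcripts, with 4 muscle markers summing to 51.5 CPM (counts scaled to library size with TMM factors) against at most 0.574 CPM in the other 7. Titin (Ttn), the giant muscle protein, stood at 397 CPM in 45C and between 1.72 and 2.66 CPM elsewhere, so its called fall (log2 fold change -5.52 ± 1.38 SE, adjusted p = 0.0254) rests on that library, and in FFPE liver its log2 fold change was 0.29. Each column name in the count table opens with a code that the labels do not explain, and it nearly followed dose. Controls 32A and 75A carried H36399, controls 45C and 63A carried H36451, and of the 1500 ppm libraries 40A and 60A carried V12161, 3A carried H36449 and 72B carried H36451, so dose and this code cannot be fully told apart.

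DR1 letters stood in few of the windows just before gene starts, and the 3 called genes that held them are shown because the receptor binds such repeats. The sequences are RefSeq promoter windows of the GRCm38.p6 build, 250 bases long and ending at the gene's start, printed 5′ to 3′ on the gene's own strand, with the match in capitals (AGGNCANAGGNCA or its reverse complement TGNCCTNTGNCCT, where N is any base). Fabp1 (liver fatty acid binding protein, chr6:71199629-71199878, plus strand) held the match 67 to 55 bases before its start. F7 (coagulation factor VII, chr8:13025784-13026033, plus strand) held it 34 to 22 bases before. Cyp2d40 (a cytochrome P450, chr15:82764123-82764372, minus strand) held it 117 to 105 bases before.
Fabp1: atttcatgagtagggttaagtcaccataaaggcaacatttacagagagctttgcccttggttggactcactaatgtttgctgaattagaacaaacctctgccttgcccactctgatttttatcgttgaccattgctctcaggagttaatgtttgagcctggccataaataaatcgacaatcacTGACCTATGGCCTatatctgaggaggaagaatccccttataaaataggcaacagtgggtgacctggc
F7: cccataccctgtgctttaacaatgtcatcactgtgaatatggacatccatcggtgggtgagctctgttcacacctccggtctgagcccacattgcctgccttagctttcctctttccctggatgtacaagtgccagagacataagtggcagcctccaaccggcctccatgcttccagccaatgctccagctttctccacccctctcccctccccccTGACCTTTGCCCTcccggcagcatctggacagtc
Cyp2d40: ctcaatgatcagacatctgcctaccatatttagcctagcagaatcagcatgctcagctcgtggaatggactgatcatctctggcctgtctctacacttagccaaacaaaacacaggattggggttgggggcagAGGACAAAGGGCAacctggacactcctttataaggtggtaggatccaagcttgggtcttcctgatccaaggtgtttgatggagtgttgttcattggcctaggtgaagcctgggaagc
These genes were named after their values were seen. Fabp1 stood at 6596, 7486, 7572 and 7071 CPM at 1500 ppm, against 3828, 2669, 2049 and 1398 CPM at 0 ppm, and rose (log2 fold change 1.53 ± 0.25 SE, adjusted p = 0.00161). F7 stood at 34.8, 24.3, 34.5 and 35.6 CPM at 1500 ppm, against 45.0, 45.4, 54.9 and 57.9 CPM at 0 ppm, and fell (-0.65 ± 0.17, adjusted p = 0.0342). Cyp2d40 stood at 19.2, 27.1, 23.7 and 32.9 CPM at 1500 ppm, against 47.1, 49.7, 47.1 and 42.1 CPM at 0 ppm, and fell as well (-0.85 ± 0.20, adjusted p = 0.0197). In all 3 genes the dose groups did not overlap, and the match stood before 1 riser and 2 fallers. The same letters stood in 111 of all 32851 windows (0.338%). Counted by gene, a match stood before 37 of the 9364 genes tested that had a window (0.395%). It stood before 1 of 430 genes that rose (0.233%) and 2 of 208 that fell (0.962%). None of the 109 named genes with a window held it, which says only that these letters are not in those 250 bases.

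At 1500 ppm, most tested genes of fatty acid uptake and oxidation rose, with large rises of the Cyp4a hydroxylases, acyl-CoA thioesterases and Ehhadh, while genes for secreted plasma proteins had the largest shares of falls among the gene lists. Of 13802 genes tested, 895 were called (6.48%, adjusted p under 0.05), 599 higher (4.34%) and 296 lower (2.14%) in 1500 ppm liver. The median log2 fold change was 0.82 over the called rises, -0.77 over the called falls and -0.03 over all genes tested. At least 2-fold rises numbered 229 (1.66%) and at least 2-fold falls 89 (0.645%). All 4 treated libraries lay above every control in 1035 genes (7.5%) and below every control in 755 (5.47%), and 549 of the called rises (3.98% of all genes) and 229 of the called falls (1.66%) were separated in this way. Values in this text are edgeR quasi-likelihood results with Benjamini-Hochberg adjusted p-values over all genes tested.

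The count of calls changed when 1 library was left out. Such a fit also has fewer animals in a group and less power, and a lost call alone does not single out that library. Leaving out 1 library gave 445 to 1181 calls, with 494 without 40A, 445 without 60A, 468 without 45C, 480 without 63A and 493 without 75A. With the header code as a term of the model 391 genes were called, 332 higher and 59 lower, and all 895 called genes kept the sign of their log2 fold change. The spread was estimated over all 16 frozen DEHP libraries, and leaving the 6000 ppm library 29B out of it gave 1051 calls. In that fit the rises numbered 17 against 10 for CAR and PXR targets, 11 against 7 for glucuronosyltransferases and carboxylesterases, 7 against 4 for NRF2 targets, 13 against 8 for the respiratory chain, 10 against 6 for pyruvate dehydrogenase and the TCA cycle, and 9 against 4 for the proteasome. Without both V12161 libraries, 40A and 60A, the calls numbered 193, of which 178 were higher. Within the code that held both doses, 72B lay above both 45C and 63A in 596 of the 599 rises (99.5%, against 38.5% of all genes tested) and below both in 290 of the 296 falls (98%, against 40.1%). These shares describe genes that were called with these libraries among the 8. Of the genes named by rule and reported, the 59 called with an adjusted p under 0.01 kept their call whichever library was left out, and all 44 called with one of 0.02 or more lost it without at least 1 library.

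**Figure D1:**
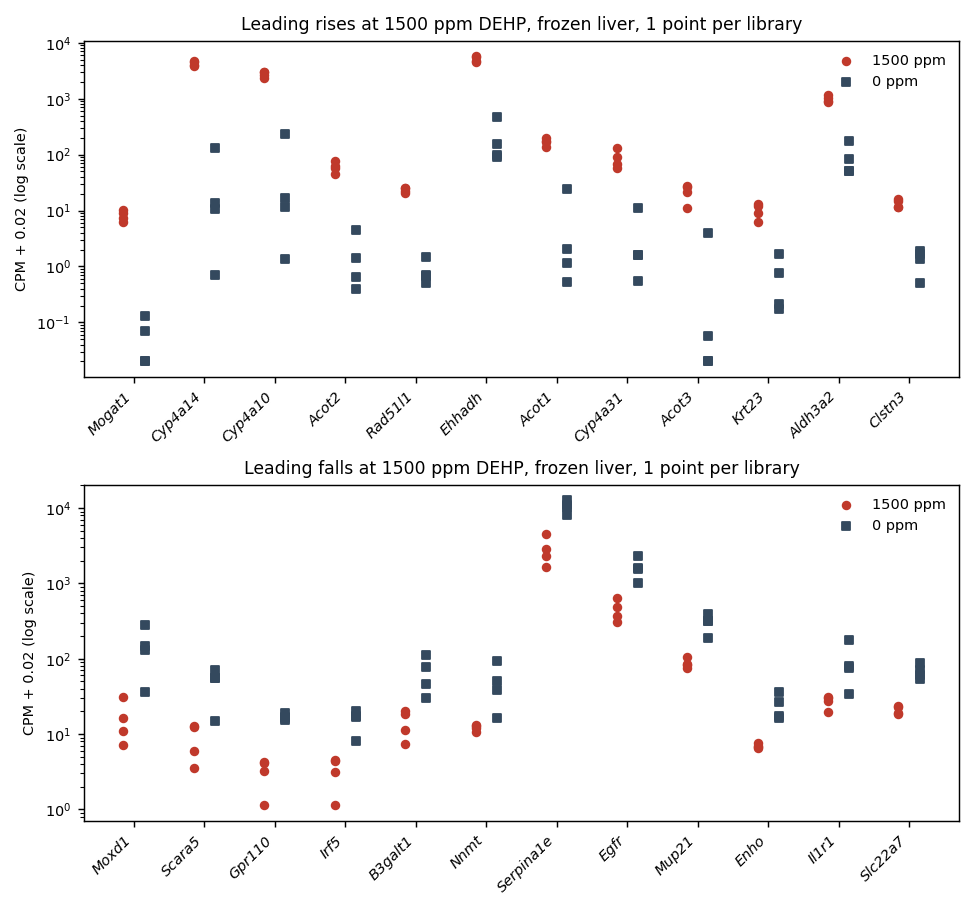
CPM plus 0.02 on a log axis for the 12 leading rises (top) and the 12 leading falls (bottom), 1 point per library, 4 at 1500 ppm (red circles) and 4 at 0 ppm (blue squares). The treated and control points of each gene do not overlap, because these genes were chosen for that. In several rising genes 1 of the control points, 32A, sits well above the rest.

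The gene with the largest called fold change above the expression floor was Mogat1 (chr1:78511060-78606964), an acyltransferase that makes diacylglycerol from monoacylglycerol. It stood at 6.26, 10.1, 7.41 and 8.84 CPM at 1500 ppm, against 0.0493, 0.111, 0 and 0 CPM at 0 ppm. All treated livers expressed it and the controls held 4 counts in all against 755 in treated liver, a ratio of 182 (95% exact counting interval 70.9 to 671, which covers counting error only). The fitted log2 fold change was 7.34 ± 0.69 (SE, adjusted p = 3.29e-05).

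Cyp4a14 (chr4:115486200-115496158) and Cyp4a10 (chr4:115518287-115533649), enzymes that hydroxylate fatty acids at the omega carbon, came next. Cyp4a14 stood at 4449, 3923, 4676 and 4075 CPM at 1500 ppm, against 131, 13.5, 0.688 and 10.5 CPM at 0 ppm (log2 fold change 6.78 ± 1.01, adjusted p = 0.000826). Cyp4a10 stood at 3057, 2382, 3041 and 2625 CPM at 1500 ppm, against 236, 16.9, 1.34 and 11.6 CPM at 0 ppm (5.39 ± 1.01, adjusted p = 0.00493). The treated livers lay close together while the controls lay far apart, with 32A highest and 63A lowest. Cyp4a31 (chr4:115563627-115579015), a neighbour in the same cluster, stood at 130, 56.5, 91.6 and 68.2 CPM at 1500 ppm, against 11, 1.56, 0.535 and 1.60 CPM at 0 ppm (4.58 ± 0.62, adjusted p = 0.000404). Cyp4a genes are near copies of each other, so how their shared reads were split is uncertain, and the same holds for the Acot1 to Acot3, Serpina1, Serpina3, Mup and Cyp3a clusters.

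Of the 12 tested Cyp4 genes 7 rose and 1 fell, with a median log2 fold change of 0.89. Cyp4a12b stood at 204, 113, 139 and 97.4 CPM at 1500 ppm, against 32.7, 21.3, 8.41 and 10.1 CPM at 0 ppm (2.93 ± 0.37, adjusted p = 0.000229). Its copy Cyp4a12a, a male-biased gene in mouse liver, rose less on the log2 scale (0.95 ± 0.15, adjusted p = 0.00166). Cyp4f14, which inactivates leukotriene B4 and was named after its value was seen, was the 1 that fell (-0.78 ± 0.16, adjusted p = 0.00806). Its call was lost with the header code as a term and without both 40A and 60A.

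Acyl-CoA thioesterases split activated fatty acids back to free acid and coenzyme A. Of 11 tested, 7 rose and none fell, with a median of 0.71. Acot2 (chr12:83987861-83993877), the mitochondrial form, stood at 78.1, 44.9, 62.7 and 57.0 CPM at 1500 ppm, against 4.43, 1.37, 0.382 and 0.638 CPM at 0 ppm (5.16 ± 0.56, adjusted p = 7.13e-05). Acot1 (chr12:84009502-84017670), the cytosolic form, stood at 198, 165, 178 and 136 CPM at 1500 ppm, against 24.5, 2.04, 0.497 and 1.15 CPM at 0 ppm (4.59 ± 0.82, adjusted p = 0.00333). The control 32A again lay nearest the treated livers. Acot3 (chr12:84052144-84060400), a peroxisomal form, had 27.6, 21.4, 26.4 and 11.2 CPM at 1500 ppm, against 3.94, 0.0371, 0 and 0 CPM at 0 ppm, and its log2 fold change of 4.50 ± 0.90 (adjusted p = 0.00716) grew to 10.08 without 32A.

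Peroxisomal beta-oxidation shortens very long fatty acids. Of its 28 tested genes, 18 rose and 1 fell (median 0.89), and 17 rose with the header code as a term. Ehhadh (chr16:21761285-21787834), the bifunctional enzyme of the pathway, stood at 5808, 4541, 5593 and 4778 CPM at 1500 ppm, against 478, 157, 100 and 91.7 CPM at 0 ppm (4.65 ± 0.49, adjusted p = 7.13e-05). Every treated liver exceeded the highest Ehhadh control by more than the spread among the treated livers. Hsd17b4, the second bifunctional enzyme, rose by less (1.03 ± 0.12, adjusted p = 0.000137). Nudt7, a peroxisomal coenzyme A hydrolase named after its value was seen, fell (-0.69 ± 0.17, adjusted p = 0.0262), and its call was lost with the header code as a term (adjusted p = 0.0941).

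The machinery that builds peroxisomes moved less. Of 21 tested genes for division and protein import 5 rose and none fell, with a median of 0.19, and the count was 9 without 32A but 2 without 45C, 63A, 75A, 40A or 60A. Pex11a, which elongates peroxisomes before they divide, stood at 61.3, 37.6, 44.5 and 33.5 CPM at 1500 ppm, against 17.8, 7.94, 6.58 and 5.43 CPM at 0 ppm (2.23 ± 0.37, adjusted p = 0.002).

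Among lists of at least 8 tested genes, mitochondrial beta-oxidation had the highest share of members called higher. Of 21 tested genes 17 rose and none fell (median 0.76), the same 17 with the header code as a term and 15 to 18 when 1 library was left out. Eci1, an enoyl-CoA isomerase, stood at 126, 142, 153 and 147 CPM at 1500 ppm, against 62.5, 40.2, 31.7 and 41.9 CPM at 0 ppm (1.69 ± 0.20, adjusted p = 0.000127). Decr1, the reductase for unsaturated fatty acids, rose (1.44 ± 0.22, adjusted p = 0.000973), and Acadl, a long-chain dehydrogenase, rose (1.09 ± 0.15, adjusted p = 0.000428). Of the 17 rises 7 were at least 2-fold, and all were smaller than those of Cyp4a14, Cyp4a10, Cyp4a31, Acot1, Acot2 and Acot3.

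The carnitine shuttle carries fatty acids into mitochondria, and 7 of its 10 tested genes rose (median 0.85). Cpt1b, the muscle form of the entry enzyme, stood at 12.9, 7.09, 12.7 and 9.65 CPM at 1500 ppm, against 3.55, 2.08, 1.53 and 1.28 CPM at 0 ppm (2.32 ± 0.45, adjusted p = 0.00572). Cpt1a, the liver form, stood at 340, 415, 411 and 539 CPM at 1500 ppm, against 498, 339, 245 and 342 CPM at 0 ppm, and was not called (0.26 ± 0.18, adjusted p = 0.444). Its groups overlapped, with 32A above 3 of the 4 treated livers. The carrier Slc25a20 (1.34 ± 0.23, adjusted p = 0.00219) and the inner-membrane enzyme Cpt2 (1.04 ± 0.17, adjusted p = 0.002) rose.

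In ketogenesis and uncoupling, 6 of 8 tested genes rose and 1 fell (median 0.70), but only 2 rose when 45C, 63A, 75A, 40A, 60A or 72B was left out. Ucp2, a mitochondrial carrier, stood at 44.8, 20.7, 24.8 and 20.0 CPM at 1500 ppm, against 6.40, 7.42, 8.52 and 7.47 CPM at 0 ppm (1.88 ± 0.25, adjusted p = 0.000309). Fgf21, a fasting hormone that PPAR alpha can induce, was not called, at 2.29, 4.93, 8.00 and 5.69 CPM at 1500 ppm against 9.41, 3.75, 2.79 and 2.17 CPM at 0 ppm (0.21 ± 0.50, adjusted p = 0.86).

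**Figure D2:**
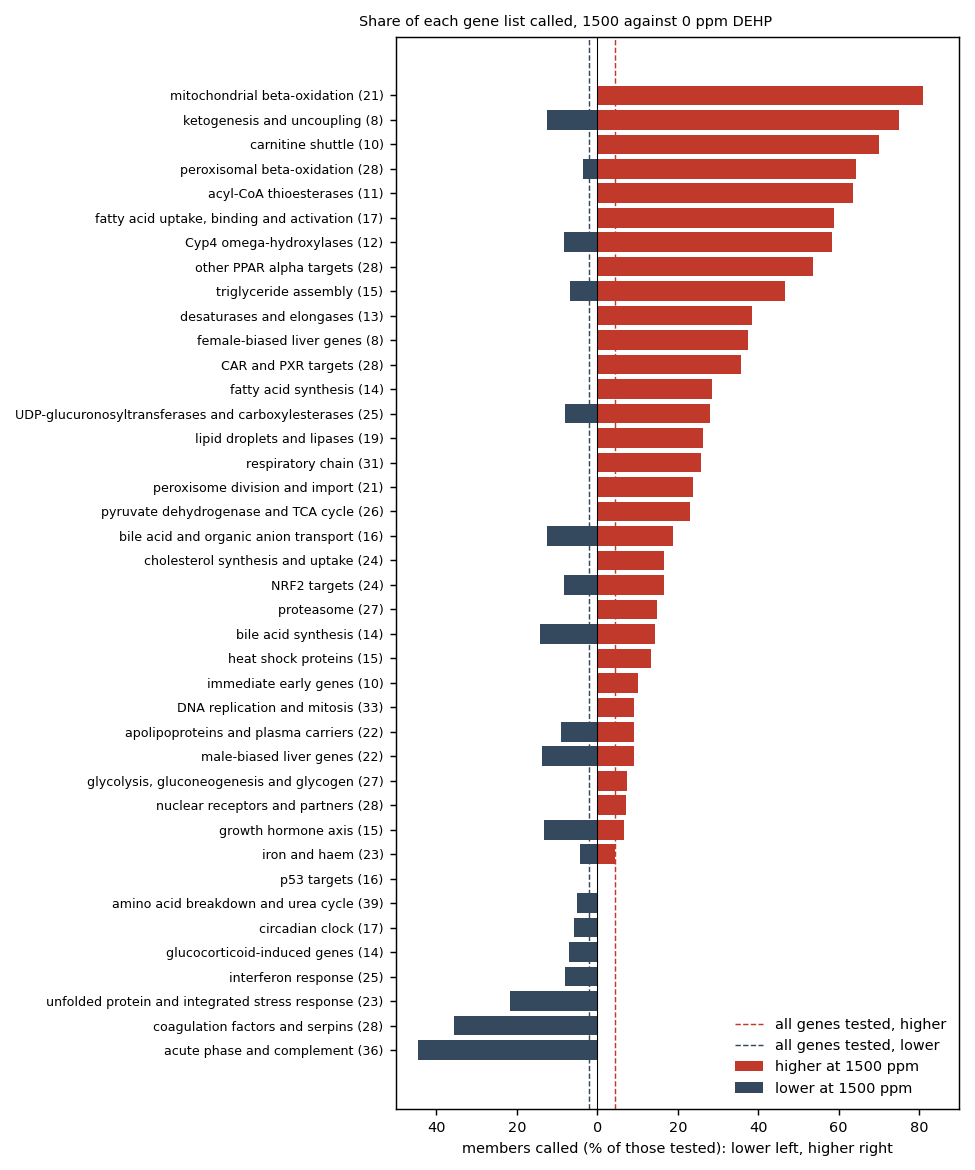
Share of the tested members of each gene list (number tested in parentheses, lists of at least 8) called higher (red, right of 0) or lower (blue, left of 0) at 1500 against 0 ppm, in percent. Dashed lines mark the shares of all genes tested, 4.34% higher and 2.14% lower; fatty acid oxidation lists sit at the top and plasma protein lists at the bottom.

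Fatty acid uptake, binding and activation genes had a median of 1.04, and 10 of 17 tested rose. The uptake receptor Cd36 stood at 175, 205, 176 and 225 CPM at 1500 ppm, against 24.3, 16.6, 13.1 and 23.2 CPM at 0 ppm (3.34 ± 0.36, adjusted p = 7.13e-05). Every treated liver was several times above the highest control, and here 32A was close to 75A. Slc27a1, a fatty acid transport protein, rose (2.60 ± 0.41, adjusted p = 0.00128), as did Dbi, which binds acyl-CoA (1.04 ± 0.17, adjusted p = 0.00151).

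Lipid droplet and lipase genes rose in 5 of 19 cases (median 0.48), in 9 without 32A, in 2 without 45C, 63A or 60A, and in 3 without 75A, 3A or 40A. Mgll, which cleaves monoacylglycerol, stood at 338, 302, 317 and 270 CPM at 1500 ppm, against 156, 127, 95 and 129 CPM at 0 ppm (1.28 ± 0.18, adjusted p = 0.000428). Plin2, the droplet coat protein, stood at 1127, 1262, 1224 and 855 CPM at 1500 ppm, against 817, 379, 264 and 319 CPM at 0 ppm (1.33 ± 0.32, adjusted p = 0.0214). The lowest treated liver for Plin2, 72B, was close to the highest control, 32A. Angptl4, a secreted lipase inhibitor, was not called, at 103, 81.8, 83.1 and 70.0 CPM at 1500 ppm against 127, 32.1, 25.4 and 45.0 CPM at 0 ppm (0.56 ± 0.40, adjusted p = 0.462), and was called without 32A (1.32, adjusted p = 0.00903) and with the header code as a term (1.57, adjusted p = 0.0493).

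Of 15 genes of triglyceride assembly 7 rose and 1 fell (median 0.18), and 2 or 3 rose when 45C, 63A, 75A, 40A or 60A was left out. Besides Mogat1, Agpat3 (0.53 ± 0.11, adjusted p = 0.01) and Gpd1, which supplies the glycerol backbone (0.67 ± 0.16, adjusted p = 0.0214), rose. Dgat2, which makes triglyceride and was named after its value was seen, fell (-0.53 ± 0.13, adjusted p = 0.0222), but not without 45C, 63A, 3A, 40A or 60A.

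Among 28 further PPAR alpha targets of the liver 15 rose and none fell (median 0.62), and 14 rose with the header code as a term. Aldh3a2 (chr11:61223417-61267528), which oxidizes fatty aldehydes, stood at 878, 1172, 1051 and 906 CPM at 1500 ppm, against 175, 83.8, 51.7 and 51.3 CPM at 0 ppm (3.47 ± 0.37, adjusted p = 7.13e-05). Vnn1, a pantetheinase, stood at 151, 157, 188 and 152 CPM at 1500 ppm, against 44.2, 9.32, 3.86 and 8.94 CPM at 0 ppm (3.29 ± 0.51, adjusted p = 0.00115). Retsat, a retinol saturase, rose by 2.67 ± 0.34 on the log2 scale (adjusted p = 0.000265). In all 3 genes 32A was the highest control by more than 2-fold. Krt23 (chr11:99477973-99493120), a keratin, stood at 6.31, 12, 8.96 and 13 CPM at 1500 ppm, against 0.739, 1.63, 0.153 and 0.192 CPM at 0 ppm (3.80 ± 0.70, adjusted p = 0.00426). Pdk4, which shuts down pyruvate dehydrogenase, was called with little margin (1.96 ± 0.55, adjusted p = 0.0434), and its call was lost whenever a library other than 32A was left out.

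The leading rises also held genes outside lipid metabolism. Rad51l1 (Rad51b in RefSeq, chr12:79297282-79848260), a DNA repair protein, stood at 22.2, 21, 24.8 and 25.2 CPM at 1500 ppm, against 0.690, 0.483, 0.650 and 1.47 CPM at 0 ppm (4.90 ± 0.37, adjusted p = 2.89e-06). Its treated livers were almost equal and its adjusted p stayed at or below 0.000289 with the header code as a term. In RefSeq 2 non-coding genes overlap this locus. Clstn3 (chr6:124430756-124464784), a calsyntenin, stood at 15, 16.3, 11.8 and 11.7 CPM at 1500 ppm, against 1.87, 0.483, 1.64 and 1.34 CPM at 0 ppm (3.37 ± 0.41, adjusted p = 0.000208).

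Transcripts of the receptors themselves were not called. Ppara stood at 316, 401, 390 and 464 CPM at 1500 ppm, against 475, 266, 195 and 289 CPM at 0 ppm (0.36 ± 0.21, adjusted p = 0.366), and was called without 32A (0.67, adjusted p = 0.026). The control 32A held more Ppara than any treated liver. Its partner Rxra (-0.32 ± 0.16, adjusted p = 0.269) and the coactivator Ppargc1a (0.45 ± 0.26, adjusted p = 0.365) were not called, while 2 of 28 nuclear receptors and partners rose, the coactivator Ppargc1b (1.33 ± 0.35, adjusted p = 0.0336) and Nfe2l2, the gene of NRF2 (0.73 ± 0.21, adjusted p = 0.0441). Both calls were lost with the header code as a term. Over all genes tested 4.34% rose, and at that share a list of 28 can hold 2 rises. Leaving out 32A gave 5 rises in this list, and leaving out 45C, 63A, 75A or 3A gave none.

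Genes that make fatty acids were less uniform than those that burn them. Of 14 synthesis genes 4 rose (median 0.43), and of 13 desaturases and elongases 5 rose (median 0.39), with 1 of these rises in each list also called with the header code as a term and 2 synthesis genes without 45C or 60A. Me1, which supplies reducing power, stood at 747, 791, 696 and 687 CPM at 1500 ppm, against 209, 177, 191 and 96.4 CPM at 0 ppm (2.12 ± 0.34, adjusted p = 0.00154). Scd1, the delta-9 desaturase, stood at 19317, 22836, 24601 and 28538 CPM at 1500 ppm, against 11921, 8592, 8935 and 4148 CPM at 0 ppm (1.5 ± 0.32, adjusted p = 0.0116). Both genes were separated between doses, though Scd1 was not called with the header code as a term (adjusted p = 0.0899). Fads2 rose (1.15 ± 0.18, adjusted p = 0.00151), and so did Fads1 (0.74 ± 0.15, adjusted p = 0.00851), both desaturases of polyunsaturated fatty acids. Fasn, the fatty acid synthase, was named after its value was seen and was not called, at 1952, 1511, 1945 and 1206 CPM at 1500 ppm against 260, 1089, 1635 and 425 CPM at 0 ppm (0.96 ± 0.50, adjusted p = 0.296). In cholesterol synthesis and uptake 4 of 24 genes rose (median 0.45), among them Nsdhl (0.88 ± 0.19, adjusted p = 0.0117) and Tm7sf2 (0.76 ± 0.16, adjusted p = 0.0108). The count was 2 without 40A or 60A. With the header code as a term 1 gene rose, and it was not among these 4.

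Drug-metabolizing genes under CAR and PXR rose in 10 of 28 cases and none fell (median 0.72), with 6 rises without 63A and 5 without 60A. With the header code as a term 8 rose, of which 7 were among the 10 and the other was Cyp2b9. Cyp3a11, the main PXR target in mouse liver, stood at 1597, 1997, 1768 and 2401 CPM at 1500 ppm, against 285, 303, 154 and 114 CPM at 0 ppm (3.18 ± 0.53, adjusted p = 0.00208). Cyp2b10, the usual CAR marker, was barely detected, at 0.573, 0, 1.23 and 0.372 CPM at 1500 ppm against 0, 0.111, 0 and 0 CPM at 0 ppm. The treated libraries held 50 counts and the controls 3, a ratio of 16.1 (95% exact counting interval 5.2 to 80.7), and the call (adjusted p = 0.0286) was lost without 60A, 63A or 75A and with the header code as a term, with adjusted p up to 0.109. The 2 aldehyde dehydrogenases Aldh1a1 (1.02 ± 0.15, adjusted p = 0.000745) and Aldh1a7 (1.11 ± 0.14, adjusted p = 0.000283) rose. The transcripts of the receptors CAR (Nr1i3, 0.50 ± 0.35, adjusted p = 0.461) and PXR (Nr1i2, 0.33 ± 0.18, adjusted p = 0.299) were not called; without 32A both were, with adjusted p = 0.000558 for Nr1i3.

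Of 24 NRF2 targets 4 rose and 2 fell (median 0.38), with no fall without 45C, 40A or 72B and 1 without 63A, 75A or 60A. With the header code as a term 4 rose, of which 3 (Abcc3, Ephx1 and Gstm4) were among those 4, and none fell. Abcc3, an export pump for conjugates and bile acids, stood at 366, 334, 312 and 351 CPM at 1500 ppm, against 123, 58.7, 38.3 and 31.9 CPM at 0 ppm (2.44 ± 0.33, adjusted p = 0.000404). Ephx1, an epoxide hydrolase (1.69 ± 0.22, adjusted p = 0.000309), and Gstm4, a glutathione transferase (1.89 ± 0.25, adjusted p = 0.000309), rose. Nqo1, a frequent NRF2 marker, was not called (0.80 ± 0.33, adjusted p = 0.179). Of 25 glucuronosyltransferases and carboxylesterases 7 rose and 2 fell (median 0.41). With the header code as a term 1 of them rose, without 32A 11 rose, and without 45C, 63A, 75A, 40A, 60A or 72B 2 to 4 did. None of 6 AhR targets (median 0.28) and none of 16 p53 targets (median 0.21) was called, against 6.48% of all genes tested.

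Respiratory chain subunits rose in 8 of 31 cases (median 0.35, range 0.17 to 0.60), each by less than 2-fold. The count was 2 with the header code as a term, 12 without 3A, 5 without 45C or 72B, 3 without 63A, and 1 without 75A, 40A or 60A. Of the 2 rises with the header code as a term, 1 was among the 8. Uqcrfs1, the Rieske protein, had the smallest adjusted p (0.50 ± 0.10, adjusted p = 0.00894). Its call was lost with the header code as a term and without both 40A and 60A. Library 3A had a median of 0.13 over this list, below the 0.38 to 0.44 of the other treated livers. In pyruvate dehydrogenase and the TCA cycle 6 of 26 genes rose (median 0.38), and 2 without 45C, 75A, 40A, 60A or 72B. Proteasome subunits rose in 4 of 27 cases (median 0.30), and Psmd4, a ubiquitin receptor of the particle, led them (0.66 ± 0.11, adjusted p = 0.0026). The proteasome count was 1 without 32A, 63A, 75A, 40A or 60A, 2 without 45C or 72B, and 1 with the header code as a term. Among 15 heat shock proteins 2 rose, both mitochondrial chaperones, Hspd1 (0.57 ± 0.15, adjusted p = 0.0319) and Trap1 (0.37 ± 0.11, adjusted p = 0.0497), and neither was called without 63A, 75A, 3A, 40A or 60A. In glycolysis, gluconeogenesis and glycogen 2 of 27 genes rose (median -0.06), Gys2 and Pgam1, each with an adjusted p above 0.04. None rose when any library other than 32A was left out. The share called higher over all genes tested was 4.34%, and at that share lists as short as these last 2 can hold 2 rises.

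Cell cycle transcripts were higher in median but mostly not called. The share called higher over all genes tested was 4.34%. Of 33 genes of DNA replication and mitosis 3 rose, Mcm4, Ccnb1 and Birc5, with a median of 0.84. The count was 0 with the header code as a term, 10 with DESeq2, 1 without 32A, 45C or 63A, and 0 without 75A, 3A, 40A or 60A. Mki67, which marks dividing cells, stood at 22.3, 9.61, 12.4 and 12.6 CPM at 1500 ppm, against 4.04, 5.75, 4.28 and 3.13 CPM at 0 ppm (1.71 ± 0.50, adjusted p = 0.0526), and was called with DESeq2 (adjusted p = 0.0226) and with 29B left out of the spread (adjusted p = 0.0459). The Mki67 groups did not overlap, and 3A was the highest library, as it was for the list, with a median log2 difference from the control mean of 1.61 against 0.26 to 0.79 in the other treated livers. Ccnd1, a cyclin of the first gap phase, overlapped between doses (0.81 ± 0.44, adjusted p = 0.318). Myc was called (2.91 ± 0.82, adjusted p = 0.0436) but its groups overlapped, at 21.5, 11.1, 1.55 and 1.52 CPM at 1500 ppm against 0.739, 1.67, 1.19 and 1.02 CPM at 0 ppm. The call was lost when any library other than 60A or 72B was left out.

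Genes for acute phase and complement proteins, which hepatocytes secrete into plasma, fell in 16 of 36 cases and none rose, with a median of -0.95. Serpina3m, a protease inhibitor, stood at 92.4, 127, 98.0 and 149 CPM at 1500 ppm, against 237, 473, 270 and 414 CPM at 0 ppm (-1.58 ± 0.25, adjusted p = 0.00131). C8a, a subunit of the complement attack complex, stood at 607, 653, 596 and 556 CPM at 1500 ppm, against 1035, 1117, 1240 and 1678 CPM at 0 ppm (-1.07 ± 0.23, adjusted p = 0.0105). Fga, the fibrinogen alpha chain, stood at 4034, 4335, 4105 and 3850 CPM at 1500 ppm, against 5462, 8994, 7248 and 9878 CPM at 0 ppm (-0.95 ± 0.22, adjusted p = 0.0169). In these 3 genes the groups did not overlap, and 32A was the lowest control. The count of falls was 5 with the header code as a term, 10 without 45C, 4 without 75A, 9 without 40A, 6 without 60A and 7 without 72B. The list median relative to the controls was -0.41 in 3A and -0.89 to -1.01 in the other treated livers, against -0.48 in the control 32A and 0.49 in the control 75A, so single libraries overlapped.

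Coagulation factors and serpins fell in 10 of 28 cases and none rose (median -0.40), 1 with the header code as a term, 8 without 32A, and 2 to 5 when any other library was left out. Ahsg, fetuin A, stood at 2644, 2966, 2669 and 3023 CPM at 1500 ppm, against 4948, 5805, 4618 and 5356 CPM at 0 ppm (-0.87 ± 0.15, adjusted p = 0.002), and was still called with the header code as a term (adjusted p = 0.0434). Serpina1e (chr12:103946931-103956897), a male-biased copy of alpha-1 antitrypsin in mice, stood at 4488, 2863, 2296 and 1650 CPM at 1500 ppm, against 8010, 10425, 11132 and 12794 CPM at 0 ppm (-1.91 ± 0.50, adjusted p = 0.0317; 0.0509 with the header code as a term). The groups of both genes were apart. Serpina12, vaspin, showed a larger log2 difference but was not called, at 20.1, 35.5, 29.6 and 37.3 CPM at 1500 ppm against 120, 170, 153 and 114 CPM at 0 ppm (-2.18 ± 0.66, adjusted p = 0.0596), and was called with 29B left out of the spread (adjusted p = 0.000527). Among 22 apolipoproteins and carriers 2 rose, among them the phospholipid transfer protein Pltp (1.63 ± 0.30, adjusted p = 0.00483), and 2 fell, transferrin (Trf, -0.74 ± 0.19, adjusted p = 0.0245) and Ambp (-0.58 ± 0.15, adjusted p = 0.0319). In this list 1 rose without 63A, 75A, 40A, 60A or 72B, and none fell without 45C, 75A, 40A or 60A. Of all genes tested 4.34% rose and 2.14% fell.

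Albumin was not called, at 40095, 46721, 43420 and 50735 CPM (Alb) at 1500 ppm against 54636, 42235, 46220 and 40437 CPM at 0 ppm (-0.02 ± 0.16, adjusted p = 0.961). The 14 hepatocyte markers summed to 97680 to 113100 CPM at 1500 ppm, against 126000 to 133500 CPM at 0 ppm, with no overlap. Of these 14 genes 5 fell, 3 without 63A, 40A or 60A, 2 without 45C or 72B, and 1 without 75A. These 5 (Ahsg, Fga, Fgb, Trf, Serpina1a) are secreted proteins, and all but Trf belong to the acute phase or coagulation lists as well. In whole tissue, fewer cells of a type and less RNA per cell cannot be told apart.

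The leading falls were of mixed function. Moxd1 (chr10:24223517-24302783), a monooxygenase-like protein, had the largest called fall among genes whose log2 CPM averaged 2 or more and whose groups did not overlap, at 16.3, 7.24, 31.1 and 10.9 CPM at 1500 ppm against 36.6, 132, 148 and 282 CPM at 0 ppm (-3.19 ± 0.86, adjusted p = 0.0359). Its lowest control, 32A, was close to its highest treated liver, 60A. Irf5 (chr6:29526130-29541869), an interferon regulatory factor, stood at 4.49, 1.11, 3.16 and 4.40 CPM at 1500 ppm, against 8.08, 17.5, 20.4 and 16.7 CPM at 0 ppm (-2.24 ± 0.40, adjusted p = 0.00339; 0.0222 with the header code as a term). Egfr (chr11:16752203-16913907), the epidermal growth factor receptor, stood at 370, 305, 639 and 492 CPM at 1500 ppm, against 998, 2323, 1576 and 1620 CPM at 0 ppm (-1.85 ± 0.45, adjusted p = 0.0215; 0.12 with the header code as a term). Enho (chr4:41638144-41640302), which encodes the peptide adropin, stood at 7.55, 6.44, 6.81 and 7.01 CPM at 1500 ppm, against 16.1, 17.3, 26.3 and 36.3 CPM at 0 ppm (-1.78 ± 0.29, adjusted p = 0.00186; 0.0271 with the header code as a term). Enho overlaps Dnaic1, which also fell (-3.53 ± 0.68, adjusted p = 0.00573), and reads of overlapping genes cannot be told apart where the counting strand is not given. Scara5, Gpr110, B3galt1, Nnmt, Serpina1e, Mup21, Il1r1 and Slc22a7 made up the rest of the 12. Their log2 fold changes ran from -2.50 for Scara5 to -1.7 for Slc22a7. Of the 12, Irf5, Mup21 and Enho were still called with the header code as a term, and none was called without both 40A and 60A.

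Male-biased liver genes were called in both directions. Of 22 tested 3 fell, Mup21, Nudt7 and Serpina1e, and 2 rose, Cyp4a12a and Cyp4a12b, with a median of -0.29. Over all genes tested 2.14% fell and 4.34% rose. All 4 treated livers lay below every control in 11 of the 22, against 5.47% of all genes tested. They lay above every control in 2 of the 22, against 7.5%. Many of the 22 are Mup genes, whose shared reads are split with uncertainty, so the members are not independent. The count of called falls was 1 without 45C, 63A, 75A, 40A or 72B. Mup21 (chr4:62147832-62150841), a major urinary protein, stood at 86.1, 107, 74.5 and 81.8 CPM at 1500 ppm, against 397, 321, 317 and 191 CPM at 0 ppm (-1.81 ± 0.37, adjusted p = 0.00807). Mup20 (-0.66 ± 0.24, adjusted p = 0.125) and Igf1 (-0.57 ± 0.20, adjusted p = 0.109) were not called. Of 8 tested female-biased genes 3 rose (median 1.83), Acot3, Cyp3a44 and Cyp17a1, with 1 called without 45C, 63A, 60A or 72B. In the growth hormone axis Igfbp2 rose (0.64 ± 0.16, adjusted p = 0.0232), and the prolactin receptor Prlr (-0.89 ± 0.23, adjusted p = 0.0319) and Igfbp4 (-0.55 ± 0.16, adjusted p = 0.0486) fell, out of 15 genes. None of the 15 fell without 32A, 75A, 60A or 72B.

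Bile acid genes moved both ways. Of all genes tested 4.34% rose and 2.14% fell. In synthesis 2 of 14 genes rose, Hsd17b4 and Acox2, and 2 fell (median 0.01), with 1 fall when any library other than 32A or 72B was left out. Cyp2c70, which makes the muricholic acids of rodents, stood at 356, 399, 313 and 249 CPM at 1500 ppm, against 744, 901, 828 and 910 CPM at 0 ppm (-1.36 ± 0.20, adjusted p = 0.000686). Cyp7a1, the rate-limiting enzyme, stood at 9.65, 4.78, 4.99 and 22 CPM at 1500 ppm, against 33.4, 25.9, 31.7 and 41.6 CPM at 0 ppm (-1.66 ± 0.46, adjusted p = 0.042). The treated value of 72B for Cyp7a1 came close to the control 45C, and the call was lost when any library other than 72B was left out. Of 16 transporters 3 rose (5 without 32A), among them Abcc3 and the phospholipid pump Abcb4 (0.79 ± 0.16, adjusted p = 0.00886), and 2 fell, Atp8b1 (-0.59 ± 0.14, adjusted p = 0.0172) and the organic anion carrier Slc22a7, with no fall without 63A or 72B and 1 without 45C, 75A, 40A or 60A.

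Counts of falls in the stress and immune lists changed when 1 library was left out. Over all genes tested 2.14% were called lower and 4.34% higher. In the unfolded protein and integrated stress response 5 of 23 genes fell (median -0.86), a larger share than over all genes tested. The count was 12 without 32A, 1 without 63A and 2 without 40A or 60A. It was 0 without any of the other libraries or with the header code as a term. Dnajc3, a chaperone partner of the endoplasmic reticulum, led them (-0.92 ± 0.22, adjusted p = 0.0222). The list median was -0.70 in the control 32A and 0.67 in the control 45C, wider apart than the treated livers (-1.07 to -0.46). Of 25 interferon genes 2 fell (median -0.62), Usp18 and Mx2, and neither was called with the header code as a term, while 7 fell without 32A and none without 45C, 63A, 75A, 40A, 60A or 29B. Mt2, a metallothionein, was called lower (-5.95 ± 1.53, adjusted p = 0.0292) with overlapping groups, at 0.287, 0.503, 0.320 and 1.15 CPM at 1500 ppm against 2.76, 116, 0.879 and 29.4 CPM at 0 ppm. Amino acid and urea cycle genes gave 2 falls of 39 (median -0.06; none when any library other than 32A was left out), the clock 1 of 17 (median 0.00), and iron and haem genes 1 rise and 1 fall of 23 (median 0.20).

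Markers of other liver cells showed no call at this depth. None of 14 Kupffer cell and macrophage, 13 sinusoidal endothelial, 14 stellate cell and 6 bile duct markers was called in the main fit. Of all genes tested 6.48% were called, and at that share lists this short can hold no call. The endothelial marker Oit3 was called with DESeq2 and without 32A or 3A, and the bile duct marker Sox9 without 3A. Kupffer cell markers summed to 169.6 to 297.7 CPM at 1500 ppm against 226.3 to 375.1 CPM at 0 ppm, and endothelial markers to 380.4 to 459.5 CPM against 395.6 to 465.8 CPM. Clec4f, specific to Kupffer cells, stood at 65.0, 30.7, 54.3 and 61.8 CPM at 1500 ppm, against 52.7, 60.2, 67.1 and 81.0 CPM at 0 ppm, with 40A the lowest. Of 13 pericentral markers 1 rose, Aldh3a2, and 1 fell, Gulo (-0.62 ± 0.15, adjusted p = 0.0217), and of 11 periportal markers none was called, with Cps1 nearest (-0.51 ± 0.15, adjusted p = 0.0515). Blood, fat and pancreas markers gave no call in the main fit. Cd4 was called with DESeq2, after thinning, without 3A and with 29B left out of the spread. Fabp4 was called with the compared groups alone. The part of any of these cells in the results was not tested.

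**Figure D3:**
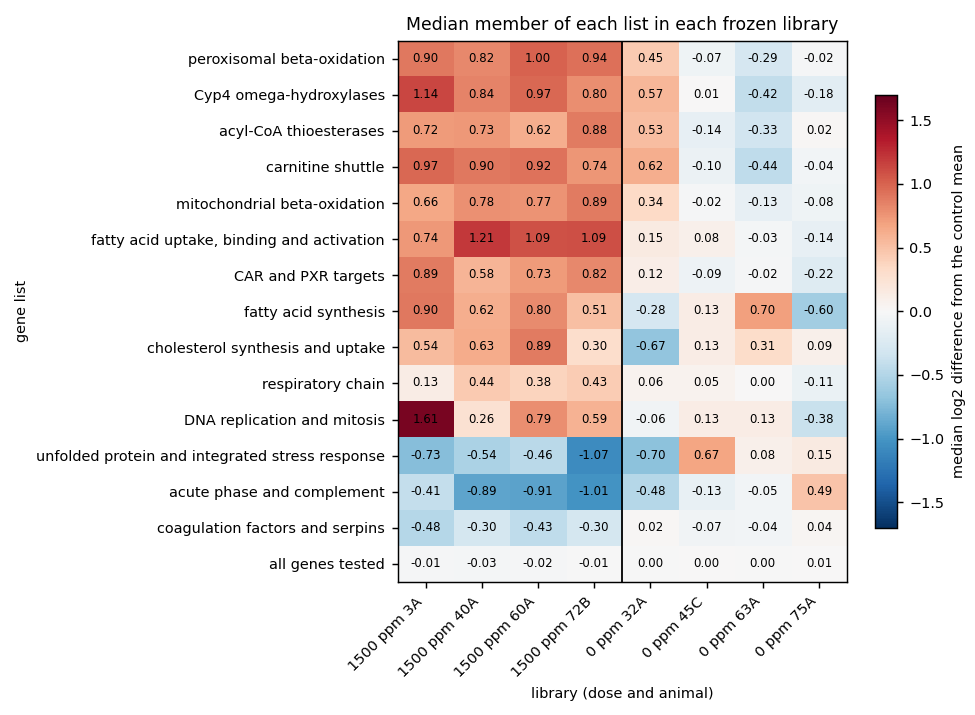
Median log2 difference from the control mean over the tested members of 14 lists and over all genes tested (rows), for the 4 libraries at 1500 ppm and the 4 at 0 ppm (columns); red is higher and blue lower. Control 32A is positive in the oxidation rows, at 0.45 for peroxisomal beta-oxidation and 0.62 for the carnitine shuttle, where the other controls lie at or below 0.01.

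Control 32A leaned towards the treated livers. It was the highest control in 361 of the 599 rises (60.3%, against 28.1% of all genes tested) and the lowest in 162 of the 296 falls (54.7%, against 28.9%). Over the rises its median log2 difference from the control mean was 0.18, against -0.04 in 45C, -0.08 in 63A and -0.07 in 75A. Over other PPAR alpha targets it was 0.51. The FFPE library of the same animal gave 0.18 over the rises, 0.46 over peroxisomal beta-oxidation, 0.60 over the carnitine shuttle and 0.51 over other PPAR alpha targets. Without 32A the calls numbered 1181, of which 761 were higher and 420 lower.

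The higher doses extend the comparison and share the same controls. Of the 13802 genes 1127 rose at 3000 ppm (8.17%) and 973 at 6000 ppm (7.05%), against 0 ppm. The 599 rises of 1500 ppm had a median log2 fold change over 0 ppm of 0.82 at 1500, 0.89 at 3000 and 0.88 at 6000 ppm, and the 296 falls had -0.77, -0.85 and -0.76. No gene was called between 3000 and 1500 ppm by edgeR, where 2122 had an unadjusted p under 0.05 (15.4%) and DESeq2 called 51. None was called between 6000 and 1500 ppm either, with 835 at an unadjusted p under 0.05 (6.05%), 16 by DESeq2 and 24 without the 6000 ppm library 29B. A missing call does not show that the doses acted alike.

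**Figure D4:**
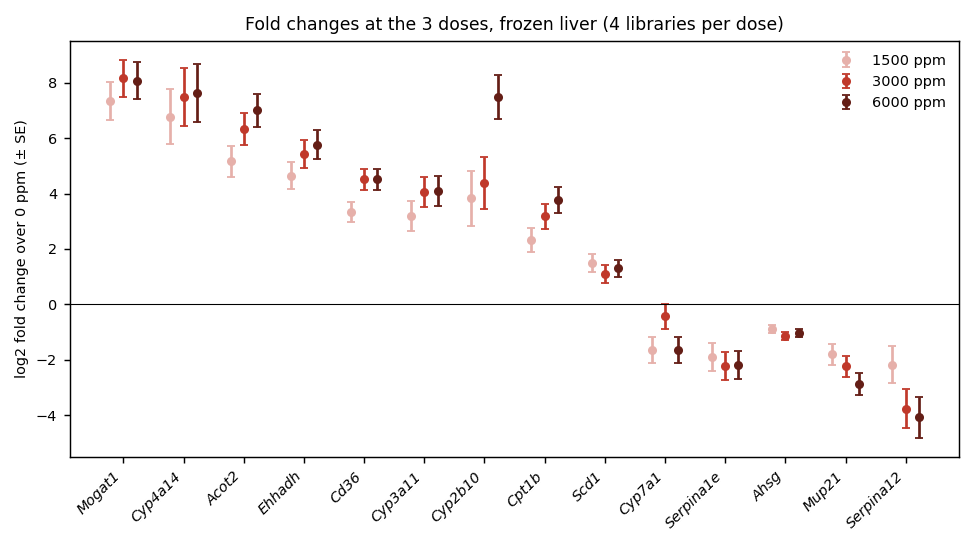
Log2 fold change over 0 ppm with its standard error for 14 named genes at 1500, 3000 and 6000 ppm (light to dark, 4 libraries per dose). Cyp2b10 is near 4 at the lower doses and at 7.49 at 6000 ppm, while Scd1 lies between 1.11 and 1.5 at all 3 doses.

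The mean levels of single genes over the 3 doses took different courses, with no call between 1500 ppm and the higher doses in edgeR. Acot2 averaged 60.7 ± 13.8, 136.7 ± 16.4 and 217 ± 110 CPM at 1500, 3000 and 6000 ppm (SD, n = 4 each), a log2 difference of 1.84 ± 0.45 between 6000 and 1500 ppm (adjusted p = 0.571). Cyp2b10 averaged 0.545 ± 0.518, 0.804 ± 0.129 and 6.96 ± 2.60 CPM, and its 6000 against 1500 ppm difference of 3.66 ± 0.56 had an adjusted p of 0.0725. At 1500 ppm it lay at the edge of detection, with 0 CPM in 40A. Scd1 averaged 23823 ± 3835, 18088 ± 6991 and 20596 ± 6146 CPM, with no call between doses. Among lists, proteasome genes rose in 4 of 27 cases at 1500, 16 at 3000 and 25 at 6000 ppm over 0 ppm. DNA replication genes rose in 3 of 33 cases at 1500, 1 at 3000 and 18 at 6000 ppm over 0 ppm. The shares of all genes tested that rose over 0 ppm were 4.34% at 1500, 8.17% at 3000 and 7.05% at 6000 ppm.

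In FFPE liver of the same animals 796 of 13581 genes were called at 1500 against 0 ppm (5.86%), 618 higher (4.55%) and 178 lower (1.31%). Of the frozen calls 558 were called the same way in FFPE, 62.3% of the frozen list and 70.1% of the FFPE list, and the animals are shared. The median FFPE log2 fold change was 0.80 over the frozen rises and -0.67 over the frozen falls. Mogat1 had a log2 fold change of 7.34 in frozen and 7.07 in FFPE liver and Ehhadh 4.65 in frozen and 4.51 in FFPE liver. In a model paired by animal, no gene of 13678 was called for a difference between the frozen and the FFPE effect by edgeR; 325 had an unadjusted p under 0.05 (2.38%), and without a filter on low counts 2 were called.

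**Figure D5:**
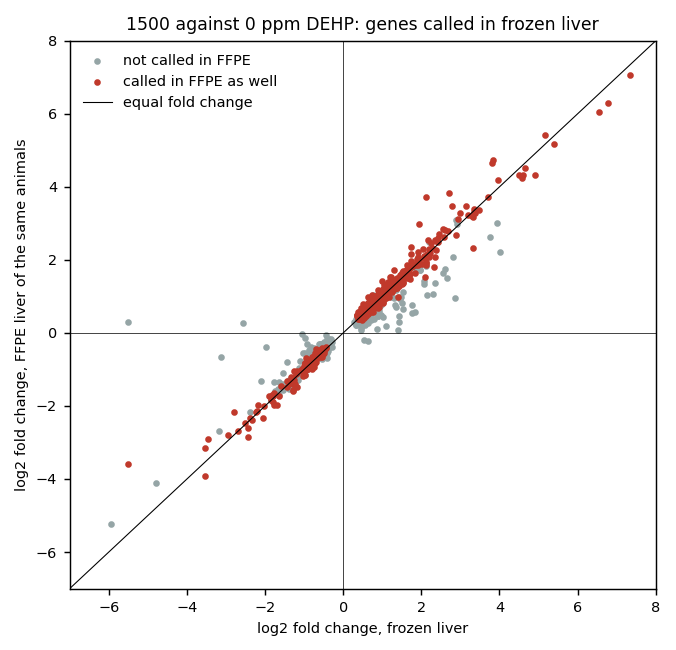
Log2 fold change of 1500 against 0 ppm in frozen liver (horizontal) and in FFPE liver of the same animals (vertical) for each gene called in the frozen fit that the FFPE fit also tested, with the line of equal fold change. Red points (558 genes) were called the same way in FFPE, and Ttn is the grey point at -5.52 and 0.29.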

How the data were processed

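Per the labels, liver RNA of DEHP-fed and control mice was sequenced from frozen and FFPE tissue of the same animals, from 100 ng of total RNA. Per the submitters' processing notes, CASAVA, STAR 2.4 and RSEM were used with mm10. The deposited gene table holds expected counts that the authors estimated with RSEM, not normalised, for 18877 genes, of which 18811 were above 0 in some library. They were rounded to whole numbers. A second deposited table of estimated counts, which lacks frozen library 40A, served as an alternative, and normalised tables were not used here.

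One edgeR fit (version 4.0.16, under R 4.3.3 with limma 3.58.1) took in the 16 frozen DEHP libraries: low genes were dropped by filterByExpr at a minimum count of 10, libraries were scaled by TMM, and each contrast had a 2-sided quasi-likelihood test whose p-values were adjusted over all genes tested by Benjamini-Hochberg, with a threshold of 0.05. The 16 FFPE libraries were fitted in the same way. Standard errors were taken from the F statistic (absolute log2 fold change over its root). The difference between frozen and FFPE effects was fitted with the animal, named in the labels, as a replicate block. Within each dose, library profiles of the 8 animals differed beyond counting noise (Spearman correlations across genes 0.968 to 0.990), so no library was counted as a repeat.

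Genes were named by a rule: the 12 largest called rises and falls whose log2 CPM averaged 2 or more and whose groups did not overlap, up to 3 called genes per list, by adjusted p, up to 2 uncalled members per cell type list, and a fixed set that includes Cyp4a10, Cpt1a, Fgf21, Cyp2b10 and Alb. Symbols of clones and predicted genes were passed over, and 3 genes that the rule named are not reported here. The members, the 41 pathway and 13 cell type lists and the tests were chosen with earlier results of these data known. Alternatives were DESeq2 1.42.0, other scaling factors, other filters and thresholds, the 2 compared groups alone, the header code as a term, thinning to the smallest total, and leaving out each library. Leaving out pairs of libraries, and the header code in the FFPE fit, were added after seeing the data. Promoter windows and coordinates are from RefSeq, GRCm38.p6.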

Additional observations from a re-analysis of the deposited data

Results flagged for a closer look

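In 14 of 314 groups of 4 values over the reported named genes (4.46%), the highest or lowest library lay far from the other 3 for the size of the group; chance flags about 1 in 20 groups. At 1500 ppm these were Decr1 in 3A, the lowest of its group at 337 CPM, Slc27a1 in 40A, the lowest at 6.79 CPM, Vnn1 in 60A, the highest at 188 CPM, Pltp in 72B, the highest at 54.4 CPM, Mx2 in 40A, the lowest at 3.12 CPM, Cpox in 72B, the lowest at 175 CPM, and Vsig4 in 40A, the lowest at 11.5 CPM. At 0 ppm library 32A was the highest for Acot3 (3.94 CPM), Acadl (128 CPM) and Pltp (16.2 CPM). Library 75A was the lowest control for Fads1 (295 CPM) and Nqo1 (1.40 CPM). Library 63A was the lowest control for Slc27a1 (1.19 CPM), and 45C was the highest for Cyp2b10 (0.111 CPM), the other controls being at 0.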

How the results depend on the processing

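The 895 calls at 1500 against 0 ppm became 257 at an adjusted p under 0.01, 318 at 2-fold or more, 391 with the header code as a term, 525 in the second deposited table, 193 without 40A and 60A, and 445 to 1181 without 1 library. DESeq2 called 1319, the 2 compared groups alone gave 674, and other scaling factors, filters and thinning gave 787 to 912. Of the 895, 346 were called with the header code as a term, where 84.9% of calls were higher, against 66.9% without it. The calls of 3000 against 1500 ppm numbered 0, but 51 with DESeq2 and 4 with the compared groups alone. Those of 6000 against 1500 ppm numbered 0, but 16 with DESeq2, 1 in the second table, 1 after thinning and 0 to 24 without 1 library. The frozen minus FFPE comparison gave 0 calls with the replicate block and 0 with no replicate block, and 2 with no filter on low counts. In FFPE liver 796 calls became 513 with the header code as a term. The cause of these shifts was not tested. Genes that changed sign were not called in the main comparison. Car3 stood at -0.060 on the log2 scale, at 0.055 with the header code as a term and at -0.36 to 0.17 without 1 library. Fgf21 stood at 0.21, at -0.15 without 40A and 60A and at -0.067 to 0.85 without 1 library. Alb stood at -0.020, at 0.10 with the header code as a term, 0.0068 without 40A and 60A, 0.047 without 32A and 75A, and -0.070 to 0.090 without 1 library. Apoa1 stood at -0.20 and at 0.034 with the header code as a term. Over the alternatives chosen at the start, the values of single named genes kept their direction and their side of the threshold in 2475 cases, lost a call in 463, gained one in 27 and changed sign in 8. Genes with few counts, such as Cyp2b10, are limited by depth.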
